A study of Oryctolagus cuniculus with 16 samples.

Results

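The genes examined here are 7 genes at 3 places in the rabbit genome, 2 on chromosome 13, 3 on chromosome 14 and 2 on chromosome 15, out of 23669 genes counted in each library. They were chosen by chromosome and start position, with earlier results of the same libraries in view, because the order of genes around them fits known interferon-stimulated genes. The measured values behind the choice are not recorded in the rule. The levels, their co-variation and their differences are therefore given as a description, and no p-value here is independent support for the choice.

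All 16 libraries came from preterm kits of New Zealand rabbits that had a moderate-to-severe intraventricular haemorrhage, a bleed into the brain's ventricles, and that had an adenovirus injected into a ventricle. In the Ad-PPARg kits the virus carried PPARg with GFP under the CMV promoter, which is not specific to a cell type. In the Ad-GFP kits it carried GFP alone. PPARg is a nuclear receptor that acts on lipid metabolism and inflammatory genes. At day 7, 2 cell types were sorted from the cerebral hemispheres: O4-positive oligodendrocyte progenitor cells (OPC), which go on to make myelin, and CD11b-positive cells with low CD45, the microglia. For both OPC and microglia there were 4 Ad-PPARg and 4 Ad-GFP libraries, each from its own animal. No kit without haemorrhage or without adenovirus is among the samples, so no level without either can be given. The libraries came from 10 animals, of which 6 gave both cell types.

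Interferon-stimulated genes are switched on when type I or type II interferon binds its receptor and activated STAT factors reach their promoters. Microglia are major responders to interferon in the brain, and oligodendrocyte lineage cells can respond too. Such genes act against viruses, tag proteins with ISG15 or ADP-ribose, or feed back on the signal, and they commonly move together. IFI44 and IFI44L lie side by side in mammalian genomes and are widely used as readouts of type I interferon, with IFI44L described in human cells as a feedback inhibitor of the response. PARP14 transfers single ADP-ribose units and acts in STAT signalling. PARP9 and DTX3L form a complex in which DTX3L is the ubiquitin ligase, and in human cells a shared promoter between them responds to interferon. HERC5 is the main ligase of ISG15 in human cells, and HERC6 has that role in mouse.

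The files hold no gene names. Positions below are as the files give them, and their genome build is not given in the sources used here. Each gene is called by its chromosome and its order there. On chromosome 13, chr13-1 (ENSOCUG00000006482) covers 86728727 to 86741379 and chr13-2 (ENSOCUG00000024378) covers 86748890 to 86777705, both on the minus strand. The gap between them is 7510 bases. RefSeq's table of the rabbit assembly mOryCun1.1 lists ADGRL4, IFI44, IFI44L and PTGFR in a row, and the file's genes in the same order had spans of 128231, 12653, 28816 and 44850 bases against 118562, 16686, 18979 and 48566 bases in RefSeq. The order therefore puts chr13-1 at the place of IFI44 and chr13-2 at that of IFI44L, although the spans of this pair do not match closely.

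On chromosome 14, chr14-1 (ENSOCUG00000003418, minus strand) covers 96395561 to 96446674. It is followed by chr14-2 (ENSOCUG00000022941, minus strand) at 96505070 to 96515631 and chr14-3 (ENSOCUG00000002699, plus strand) at 96519525 to 96550831. The gaps are 58395 and 3893 bases, and chr14-2 and chr14-3 point away from each other. RefSeq lists HSPBAP1, PARP14, DTX3L, PARP9 and KPNA1 next to each other, in reverse direction along the chromosome. Their spans of 55701, 51259, 5961, 36345 and 75941 bases stand beside 57093, 51114, 10562, 31307 and 73600 bases for the file's genes, so that chr14-1, chr14-2 and chr14-3 lie at the places of PARP14, DTX3L and PARP9.

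On chromosome 15, chr15-1 (ENSOCUG00000029688) covers 61629552 to 61667971 and chr15-2 (ENSOCUG00000015849) covers 61674650 to 61689295, both on the minus strand and 6678 bases apart. RefSeq has PIGY, HERC5, HERC6 and PPM1K there, with HERC5 spanning 60903 bases and HERC6 spanning 65952 bases. In the files, a flanking gene of 24 exon entries, ENSOCUG00000015872, covers 61566358 to 61625050 on the minus strand, a span of 58693 bases, and lies at the place of HERC5. The genes chr15-1 and chr15-2, with 15 and 8 exon entries, follow it and together cover 59744 bases before the gene at the place of PPM1K. Both thus lie where RefSeq has the single gene HERC6, rather than at the places of HERC5 and HERC6. Whether they are 2 genes or parts of 1 was not tested. None of the 7 genes shares exon bases with another annotated gene, and no name is given to any of them here, since place and span are not an annotation.

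Total counts per library were 6.24 to 17.6 M (mega). In the OPC sort, the replicate Ad-PPARg 4 stood apart, with a median Spearman correlation with the other OPC libraries of 0.920, against 0.964 to 0.988 for the others. Without gene names the sorts could not be checked against CD11b, CD45 or O4-related genes. As a description by level, the share of counts is given for the 826 other genes called at least 16-fold higher in microglia. These genes were chosen on these same libraries, so a low share in OPC follows from the choice and is no check of the sorts. They took 0.570, 1.18, 0.674 and 0.672% of counts in the OPC Ad-PPARg libraries, and 0.668, 0.726, 1.02 and 0.869% in the OPC Ad-GFP libraries. These shares overlap between the treatments. In microglia the same genes took 21.4, 25.8, 23.99 and 24.3% of counts in the Ad-PPARg libraries and 26.7, 23.5, 25.0 and 24.7% in the Ad-GFP libraries. The share was highest in Ad-GFP 1 and Ad-PPARg 2, the 2 microglia libraries with the lowest summed level of the 7 genes, and lowest in Ad-PPARg 1, which had the highest. Its part in the results in microglia was not tested. The animals' identifiers share 6 prefixes, 3 per treatment and none in both, whose meaning the labels do not give. No prefix holds both treatments, so treatments can only be compared across prefixes.

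All 7 genes were lower in OPC than in microglia. Levels are CPM, a gene's counts per mega-count (10 to the power 6) of the library, after edgeR's TMM correction of the totals for composition. The mean over the 8 libraries of a cell type is given with its SD. At the chromosome 13 locus, chr13-2 averaged 43.2 ± 20.6 CPM in OPC and 101.5 ± 19.6 CPM in microglia, and chr13-1 averaged 16.5 ± 9.17 CPM in OPC and 58.7 ± 17.7 CPM in microglia. At the chromosome 14 locus, chr14-1 averaged 20.8 ± 9.50 CPM in OPC and 334.8 ± 94.3 CPM in microglia. Its neighbours had 9.81 ± 4.33 CPM in OPC and 137.3 ± 28.0 CPM in microglia for chr14-2, and 5.65 ± 2.41 CPM in OPC and 107.0 ± 19.9 CPM in microglia for chr14-3. The 3 loci thus differed in how far apart the cell types were. The OPC level was 42.6 and 28.1% of the microglial level for chr13-2 and chr13-1, but 6.20, 7.15 and 5.28% for chr14-1, chr14-2 and chr14-3. The chromosome 15 pair lay between, at 17.6% for chr15-1 (8.12 ± 3.31 CPM in OPC, 46.2 ± 18.1 CPM in microglia) and 17.2% for chr15-2 (4.22 ± 2.05 CPM in OPC, 24.5 ± 9.71 CPM in microglia).

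On this scale the OPC and microglia libraries overlapped in no gene apart from chr13-2. There the highest OPC library, at 77.5 CPM, lay above the lowest microglia library, at 73.5 CPM. Without the TMM correction, chr13-1 and chr15-2 overlapped too. The highest OPC library then had 92.0 CPM for chr13-2, 40.2 CPM for chr13-1 and 10.8 CPM for chr15-2. The lowest microglia library had 56.8, 27.3 and 10.4 CPM for these genes. The log2 fold change of OPC over microglia was -1.92 for chr13-1 (SE 0.24) and -1.30 for chr13-2 (SE 0.18). It was -4.05, -3.86 and -4.28 for chr14-1, chr14-2 and chr14-3, and -2.54 and -2.56 for chr15-1 and chr15-2. With edgeR's quasi-likelihood test over 14699 genes, 7 of 7 were called lower in OPC than in microglia, at adjusted p of 1.30e-11 to 6.27e-06, where 33.4% of all genes tested were called lower in OPC. For scale, the 826 other genes called at least 16-fold higher in microglia had a median OPC level of 2.31% of their microglial level. That cut caps their OPC level, and 2 of the 7 genes, chr14-1 and chr14-3, passed it too. How much of each gene's OPC reads came from microglia left in the sort was not tested. In such bulk libraries fewer cells making an RNA and less RNA in each cell cannot be told apart.

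**Figure D1:**
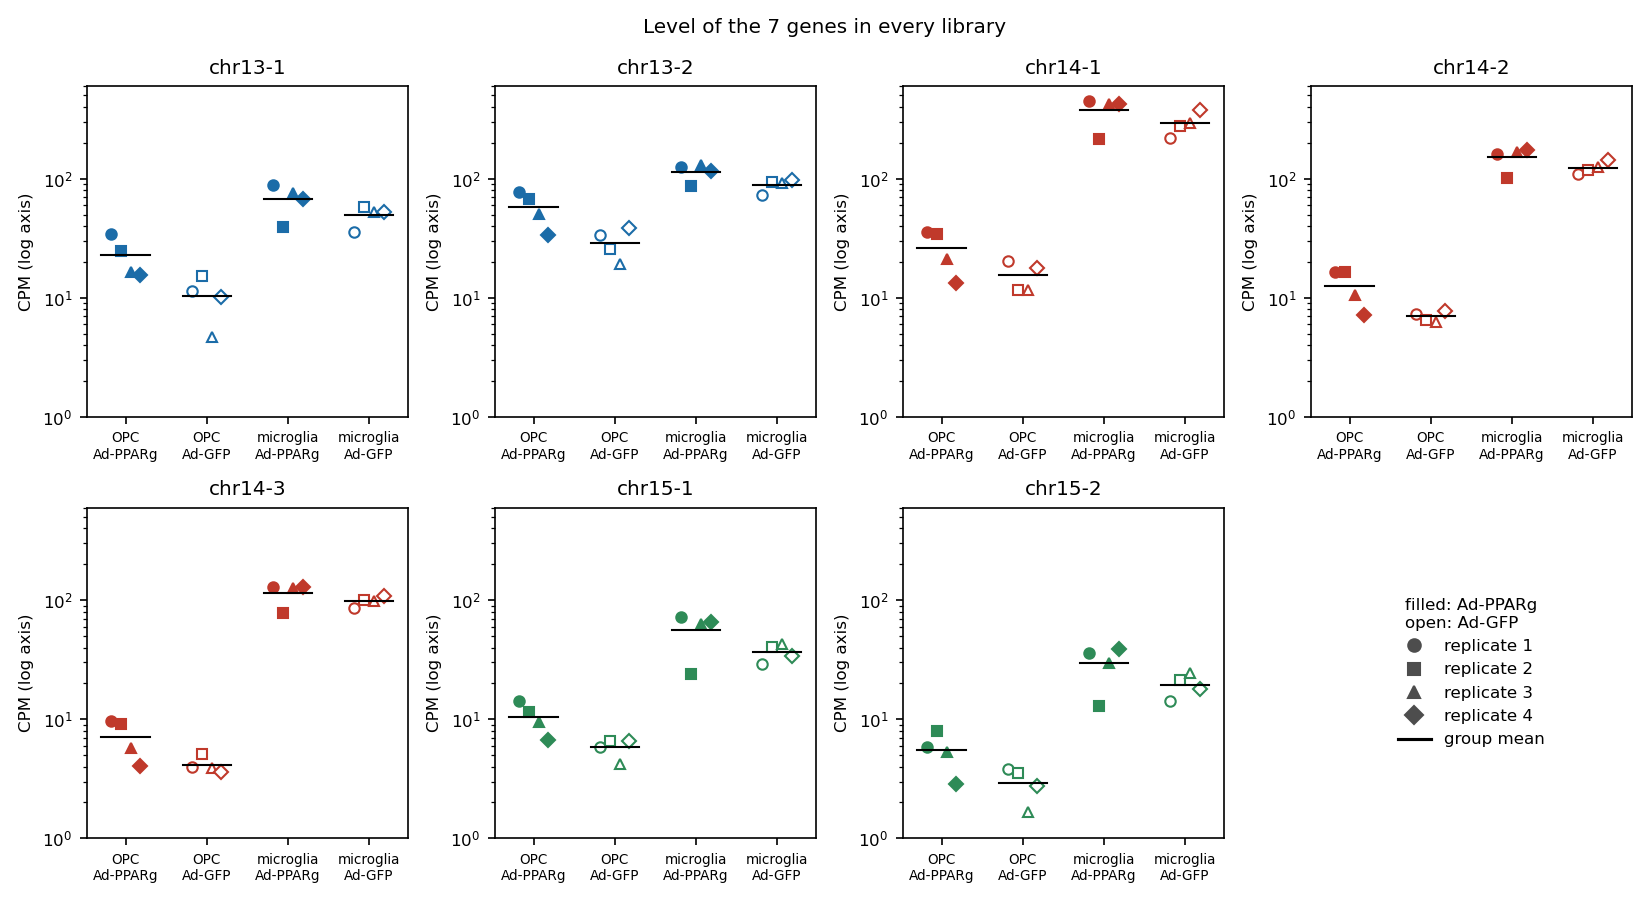
Level of each of the 7 genes in every library, in CPM on a log axis, by cell type and treatment; each symbol is a library and the bar is the mean of 4. The OPC libraries lie below the microglia libraries, except for 1 overlapping pair of libraries in chr13-2, with the widest margin on chromosome 14, and in OPC the replicates Ad-PPARg 1 and 2 are the highest for every gene.

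Per kilobase of annotated exon length, which allows genes to be compared, the order of levels differed between the cell types. In OPC, chr13-2 had 19.7 and chr13-1 had 13.1 CPM per kilobase, followed by chr15-2 with 4.79, chr14-1 with 2.96, chr14-3 with 2.12, chr14-2 with 1.86 and chr15-1 with 1.44. In microglia, chr14-1, chr13-1, chr13-2 and chr14-3 had 47.7, 46.5, 46.2 and 40.2 CPM per kilobase, and the first 3 of these differed by far less than their spread over libraries. The genes chr15-2, chr14-2 and chr15-1 had 27.8, 26.0 and 8.21 CPM per kilobase. The chromosome 13 genes thus led in OPC by a wide margin, and in microglia shared the top with chr14-1. The mean of chr14-3 in microglia, though lower, lay inside the range of each of these genes over the libraries.

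In OPC, every one of the 7 genes had a higher mean after Ad-PPARg than after Ad-GFP, but none passed the test over all genes. For chr13-1, at the place of IFI44, the OPC Ad-PPARg libraries had 34.2, 24.7, 16.3 and 15.5 CPM, against 11.4, 15.1, 4.72 and 10.1 CPM in OPC Ad-GFP. Each Ad-PPARg library lay above each Ad-GFP library, by a small margin at the edge, and Ad-GFP 3 was the lowest. For chr13-2, at the place of IFI44L, the values were 77.5, 68.0, 50.4 and 33.4 CPM in OPC Ad-PPARg and 33.4, 25.5, 19.1 and 38.2 CPM in OPC Ad-GFP. Here Ad-PPARg 4 fell within the Ad-GFP libraries.

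At the chromosome 14 locus the higher mean came from the replicates Ad-PPARg 1 and 2, with Ad-PPARg 3 next. The gene chr14-1 had 35.6, 34.3, 21.1 and 13.4 CPM in OPC Ad-PPARg, against 20.4, 11.7, 11.7 and 17.9 CPM in OPC Ad-GFP. The gene chr14-2 had 16.4, 16.6, 10.5 and 7.12 CPM in OPC Ad-PPARg, and 7.36, 6.53, 6.20 and 7.79 CPM in OPC Ad-GFP. In both, Ad-PPARg 4 was inside the range of the Ad-GFP libraries. The gene chr14-3, at the place of PARP9, had 9.65, 9.13, 5.73 and 4.08 CPM in OPC Ad-PPARg, against 3.98, 5.09, 3.93 and 3.64 CPM in OPC Ad-GFP. These are low levels, and the groups overlapped through Ad-PPARg 4 again.

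On chromosome 15, chr15-1 had 14.2, 11.4, 9.46 and 6.72 CPM in OPC Ad-PPARg and 5.86, 6.53, 4.19 and 6.62 CPM in OPC Ad-GFP. The groups did not overlap, but Ad-PPARg 4 and the highest Ad-GFP library were nearly equal. For chr15-2 the values were 5.84, 8.01, 5.32 and 2.88 CPM in OPC Ad-PPARg and 3.82, 3.52, 1.66 and 2.73 CPM in OPC Ad-GFP, with Ad-PPARg 4 inside the Ad-GFP range. In all 7 genes the 3 highest OPC libraries were thus Ad-PPARg 1, 2 and 3, and Ad-PPARg 4 ranked 4th to 6th of 8. The treatments did not overlap in 2 of the 7 genes, chr13-1 and chr15-1, and 0.460% of all 13492 genes tested had Ad-PPARg libraries all above the Ad-GFP libraries. Without the TMM correction of the totals, the treatments overlapped in these 2 genes as well. Ad-PPARg 4 then had 15.7 CPM for chr13-1 and 6.78 CPM for chr15-1, below Ad-GFP 2 with 18.6 and 8.0 CPM.

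The fitted log2 fold change in OPC was largest at the chromosome 13 locus, where chr13-1 had 1.16 (SE 0.37, 2.23-fold) and chr13-2 had 1.01 (SE 0.30, 2.02-fold). It was 0.79 (SE 0.34) for chr14-1, 0.89 (SE 0.30) for chr14-2, 0.80 (SE 0.32) for chr14-3, 0.88 (SE 0.28) for chr15-1 and 0.94 (SE 0.39) for chr15-2. The median of the 7 was 0.89, beside a median of 0.03 over all genes tested, and the values of the 7 lay within about 1 SE of one another. With edgeR's quasi-likelihood test, 0 of 7 were called (adjusted p 1.00 for each), and 0.0% of all genes were. The unadjusted edgeR p was 0.00739 to 0.0441 and below 0.05 in 7 of 7, with 0.763% of all genes below 0.05 and higher after Ad-PPARg. It was below 0.05 in only 4 of 7 without Ad-PPARg 1, Ad-PPARg 2, Ad-GFP 3 or Ad-GFP 4. In those fits 103 of 13746, 161 of 13557, 76 of 13595 and 86 of 13774 genes were below 0.05 and higher after Ad-PPARg. DESeq2 also called 0 of the 7, and 7 genes in all. Without replicate Ad-PPARg 4 the 7 log2 fold changes were 1.00 to 1.30 (adjusted edgeR p 0.233 to 0.366). In that fit 1051 of all 13763 genes had an unadjusted p below 0.05, 475 of them higher after Ad-PPARg, and 2 genes were called. The median SE over all genes was 0.18, against 0.25 with every library. Ad-PPARg 4 was also the lowest of its treatment in these genes, so the fit without it is no independent support. Taking the prefix of the animals' identifiers as a random block in limma, 0 of 7 had an unadjusted p below 0.05, with adjusted p of 1.00 and log2 fold changes of 0.69 to 1.33. In that fit only 36 of all 13492 genes were below 0.05, 6 of them higher after Ad-PPARg, so the count says little about these genes.

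In microglia all 7 means were likewise higher after Ad-PPARg, with smaller fitted changes, and every gene's treatments overlapped through 1 library. For chr13-2 the values were 124.7, 87.0, 129.5 and 115.3 CPM in microglia Ad-PPARg, against 73.5, 93.2, 92.2 and 96.7 CPM in microglia Ad-GFP. For chr14-1 they were 445.6, 216.3, 426.0 and 424.2 CPM in microglia Ad-PPARg and 221.1, 276.9, 293.2 and 375.0 CPM in microglia Ad-GFP. For chr15-1 they were 71.9, 23.8, 62.9 and 65.0 CPM in microglia Ad-PPARg and 29.0, 40.4, 42.8 and 34.3 CPM in microglia Ad-GFP. At each locus Ad-PPARg 1, 3 and 4 were the 3 highest libraries, while Ad-PPARg 2 lay among the lowest.

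The other 4 genes had the same layout. The gene chr13-1 had 87.7, 39.5, 75.5 and 68.0 CPM in microglia Ad-PPARg and 35.3, 58.3, 53.0 and 52.5 CPM in microglia Ad-GFP. The gene chr14-2 had 162.4, 100.9, 167.4 and 172.7 CPM in microglia Ad-PPARg and 108.7, 117.5, 125.4 and 143.5 CPM in microglia Ad-GFP. The means ± SD of chr14-3 were 115.6 ± 25.2 CPM in microglia Ad-PPARg and 98.5 ± 9.61 CPM in microglia Ad-GFP, and those of chr15-2 were 29.4 ± 11.6 CPM in microglia Ad-PPARg and 19.5 ± 4.39 CPM in microglia Ad-GFP (n = 4 each). Ad-PPARg 2 was the lowest of the 8 microglia libraries in 5 of the 7 genes and ranked 7th in the others, where Ad-GFP 1 was lowest.

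The microglial log2 fold changes were 0.44 (SE 0.26) for chr13-1 and 0.36 (SE 0.17) for chr13-2, 0.37 (SE 0.26), 0.28 (SE 0.19) and 0.23 (SE 0.19) for chr14-1, chr14-2 and chr14-3, and 0.61 (SE 0.32) and 0.59 (SE 0.32) for chr15-1 and chr15-2. Their median was 0.37, beside 0.03 over the 13041 genes tested. The edgeR test called 0 of 7 (adjusted p 0.444 to 0.635) and 0.0% of all genes. An unadjusted p below 0.05 was reached by 0 of 7, with 4.87% of all genes below it and higher after Ad-PPARg, and DESeq2 called 0 of the 7 and 121 genes in all. The groups were free of overlap in 0 of 7, beside 2.26% of all genes. Replicate Ad-PPARg 2 moved these values. Without it the log2 fold changes were 0.39 to 0.88 and the adjusted edgeR p 0.0941 to 0.304. The unadjusted p was then below 0.05 in 7 of 7 instead of 0, beside 738 of all 13575 genes below it and higher after Ad-PPARg. That library is named because it was low in these genes, so the fit without it is no independent support. Without Ad-PPARg 1 the log2 fold changes were 0.11 to 0.42.

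**Figure D2:**
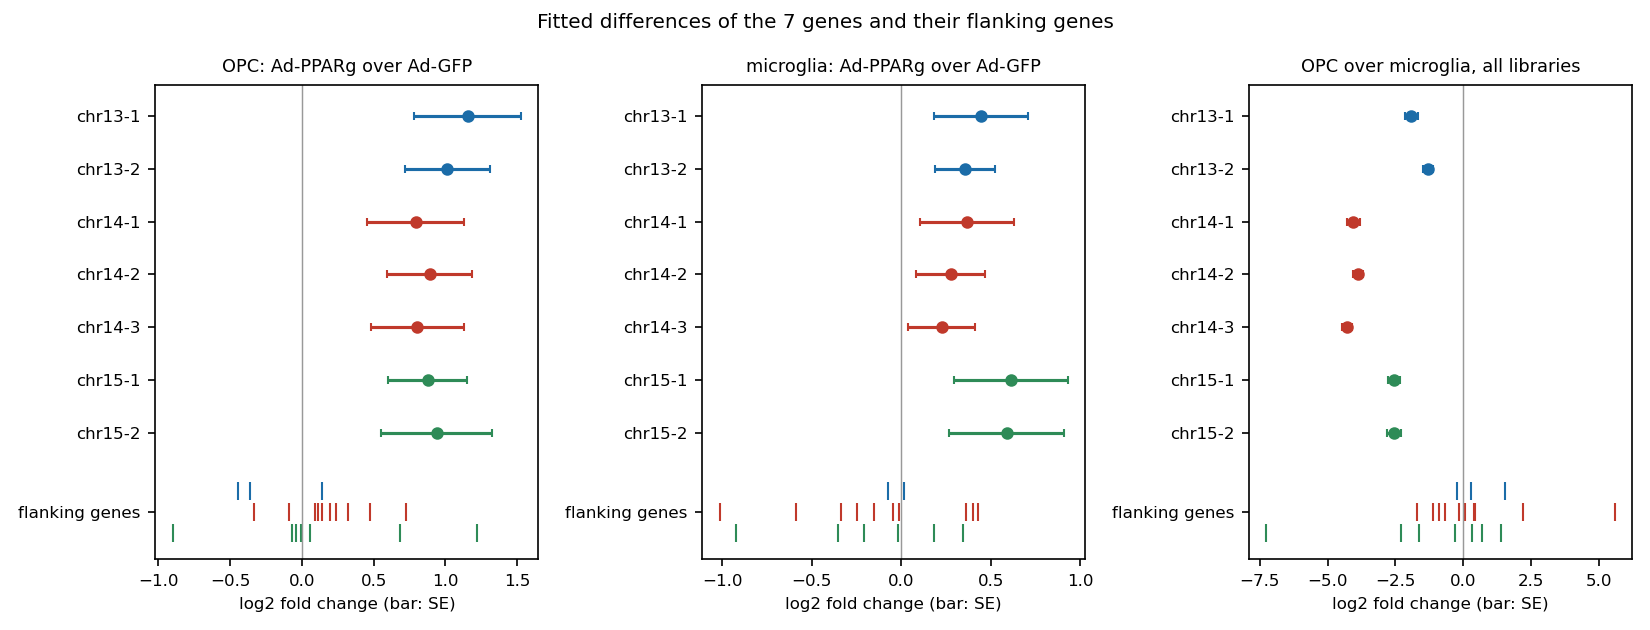
Fitted log2 fold changes of the 7 genes with their SE, for Ad-PPARg over Ad-GFP in OPC and in microglia and for OPC over microglia; ticks below show the flanking genes, coloured by chromosome. The 7 genes lie to the right of 0 in both cell types and to the left of 0 for OPC over microglia, with the flanking genes on both sides.

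The log2 fold change in OPC exceeded that in microglia by 0.25 for chr15-1 to 0.68 for chr13-1. Tested as an interaction over all 16 libraries, this difference was called in 0 of 7 genes (edgeR adjusted p 0.997 for each, unadjusted p 0.0944 to 0.571) and in 0.0% of all 14699 genes, with 402 genes below an unadjusted p of 0.05. DESeq2 called 0 of the 7 and 2 genes in all. In the 6 animals with both cell types, with the animal as a fixed block, edgeR again called 0 of 7 (adjusted p 0.959 to 0.990). The unadjusted p was below 0.05 in 3 of 7, chr13-2 (difference 0.68, SE 0.21), chr14-2 (0.65, SE 0.24) and chr14-3 (0.65, SE 0.26). In the same fit 660 of all 14802 genes were below 0.05, 340 of them with a positive difference. A difference between the cell types was thus neither called nor shown to be absent.

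The 3 loci followed one another from library to library. Correlations were taken over log2 CPM in the 8 libraries of a cell type, which are separate animals but share treatment groups and identifier prefixes. In OPC the 16 pairs of genes on different chromosomes had a median Pearson correlation of 0.877 (0.747 to 0.965), and the 5 pairs of neighbours within a locus had 0.897 (0.812 to 0.949). In microglia the pairs between chromosomes had 0.905 (0.857 to 0.950), and the neighbours 0.978 (0.948 to 0.983). The median Spearman correlation between loci was 0.845 in OPC and 0.881 in microglia, and within loci it was 0.762 in OPC and 0.905 in microglia. In OPC, genes on different chromosomes were thus nearly as alike as neighbours by Pearson and more alike than neighbours by Spearman. In microglia they were somewhat less alike than neighbours by both measures. By pair of loci, the median in OPC was 0.826 between chromosomes 13 and 14, 0.913 between 13 and 15 and 0.871 between 14 and 15. In microglia these medians were 0.907, 0.901 and 0.899.

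With the mean of each treatment taken out, the median between loci was 0.780 in OPC and 0.889 in microglia, so the loci also followed one another among animals of the same treatment. Without the 2 libraries farthest from the median of the 7 genes, Ad-PPARg 1 and 2 in both cell types, the medians over 6 libraries were 0.737 in OPC (0.337 to 0.920) and 0.863 in microglia (0.766 to 0.970). In OPC the least alike pair of genes on different chromosomes was thus only weakly correlated once the highest libraries were gone. The summed level of the 7 genes was 193.4, 172.3, 118.8 and 83.1 CPM in OPC Ad-PPARg and 86.2, 74.0, 51.5 and 87.0 CPM in OPC Ad-GFP. It was 1058, 558.2, 1018 and 1012 CPM in microglia Ad-PPARg and 567.5, 708.6, 729.8 and 828.5 CPM in microglia Ad-GFP. Between the lowest and the highest library, single genes spanned 2.65-fold (chr14-3) to 7.25-fold (chr13-1) in OPC and 1.67-fold (chr14-3) to 3.03-fold (chr15-1) in microglia.

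**Figure D3:**
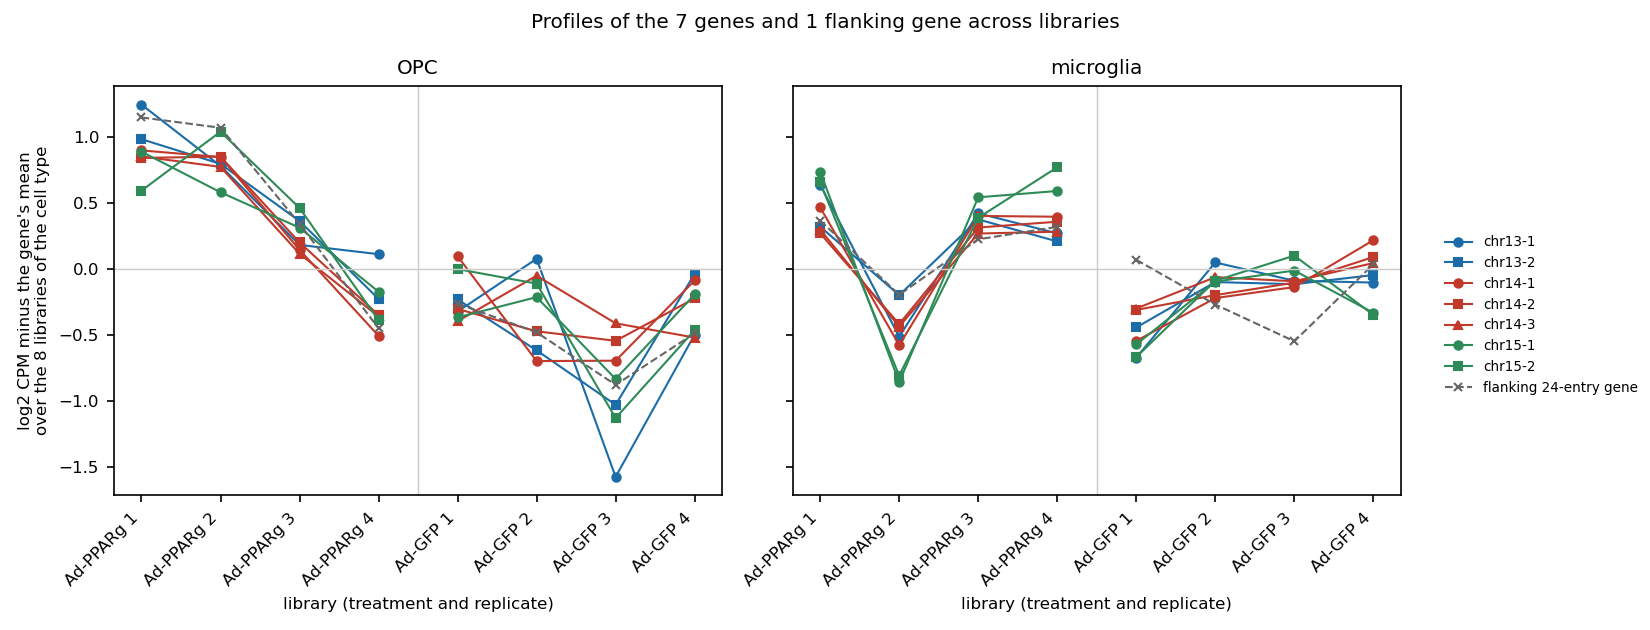
Log2 CPM of the 7 genes and of the flanking 24-entry gene in each library, minus the gene's mean over the 8 libraries of its cell type; lines only join the points of a gene, since replicates have no order. The genes of the 3 loci follow the same course, high in OPC Ad-PPARg 1 and 2 and low in OPC Ad-GFP 3, and high in microglia Ad-PPARg 1, 3 and 4 but low in Ad-PPARg 2.

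Within a locus the genes did not keep exactly the same ratio in both cell types. The ratio of chr13-2 to chr13-1 was 2.84 ± 0.81 in OPC and 1.79 ± 0.25 in microglia (SD, n = 8 each). The ratio of chr14-3 to chr14-2, which point away from each other, was 0.585 ± 0.092 in OPC and 0.782 ± 0.036 in microglia. The ratio of chr15-2 to chr15-1 was close in both, at 0.513 ± 0.119 in OPC and 0.530 ± 0.042 in microglia.

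In the 6 animals with both cell types, the summed levels of the treatments lay apart in both. At the chromosome 13 locus, the summed level of the 3 Ad-PPARg animals was 111.7, 92.8 and 66.7 CPM in OPC, against 44.8, 40.6 and 48.3 CPM in the 3 Ad-GFP animals. In microglia of the same animals it was 212.4, 205.0 and 183.3 CPM after Ad-PPARg and 151.5, 145.2 and 149.2 CPM after Ad-GFP. The same separation held on chromosome 14, where OPC had 61.6, 60.0 and 37.3 CPM after Ad-PPARg and 31.7, 23.3 and 29.3 CPM after Ad-GFP. The share of all genes that separate 3 against 3 animals in this way was not counted, so the separation is given as a description only. These animals form 2 treatment groups of 3, so a correlation over all 6 includes the difference between the treatments. Once treatment means were taken out, the correlation between the cell types of an animal had a median of 0.158 over the 7 genes, from -0.40 for chr14-3 to 0.78 for chr13-2.

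The libraries that broke the pattern came from animals outside these 6. Microglia Ad-PPARg 2, the low microglia library, and OPC Ad-PPARg 4, the low OPC library of that treatment, are from different animals that share an identifier prefix, and no other library has that prefix. The members' summed level in them was 558.2 CPM in microglia and 83.1 CPM in OPC, against means of 1015 CPM in microglia and 145.5 CPM in OPC for the 2 Ad-PPARg animals of another prefix, and 1058 CPM in microglia and 193.4 CPM in OPC for the animal of the remaining one. What the prefix stands for is not known. In limma, libraries of the same prefix had a consensus correlation of 0.809 in OPC and 0.534 in microglia, and with the prefix as a random block 0 of 7 genes had an unadjusted p below 0.05 in either cell type. Among all genes, 36 of 13492 in OPC and 810 of 13041 in microglia were below 0.05. Of these, 6 in OPC and 346 in microglia were higher after Ad-PPARg.

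**Figure D4:**
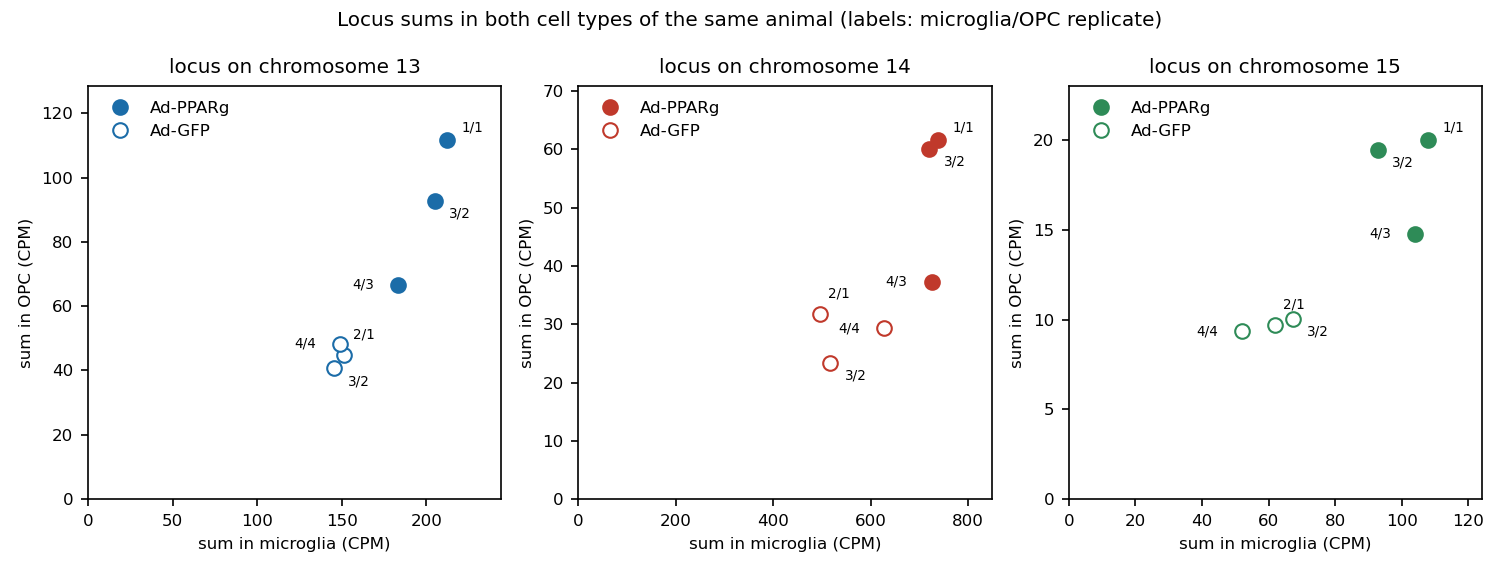
Summed level of each locus in microglia (x axis, CPM) and in OPC (y axis, CPM) of the 6 animals with both cell types; labels give the microglia and the OPC replicate number. The 3 Ad-PPARg animals lie above and to the right of the 3 Ad-GFP animals at every locus, a separation whose share among all genes was not counted.

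The genes next to the loci mostly did not follow them. Of the 5 annotated genes on each side of each locus, 20 passed the filter on low counts in OPC and 18 in microglia. In OPC 12 of these were higher and 8 lower after Ad-PPARg (median log2 fold change 0.10), and edgeR called 0. In microglia 6 were higher and 12 lower (median -0.06), edgeR called 0, and 5 had an unadjusted p below 0.05, of which 2 were higher. Of all 13041 genes tested there, 1488 were below 0.05, and 635 of these were higher. Apart from 1 gene on chromosome 15, their correlations with the mean of the 7 genes were -0.651 to 0.767 in OPC, and over all 18 they were -0.846 to 0.616 in microglia. In OPC, 166 of all 13492 genes had an unadjusted p below 0.05. The 1 such flanking gene was ENSOCUG00000015872, the 24-entry gene at the place of HERC5.

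That gene had 19.7, 18.6, 11.2 and 6.40 CPM in OPC Ad-PPARg, against 7.31, 6.26, 4.72 and 6.23 CPM in OPC Ad-GFP. The order of the Ad-PPARg libraries was that of chr15-1, and Ad-PPARg 4 again lay within the Ad-GFP libraries. Its log2 fold change in OPC was 1.22 (SE 0.36, edgeR adjusted p 1.00), a larger value than for any of the 7 genes, and its correlation with their mean was 0.988 over the 8 OPC libraries. In microglia it had 58.2, 39.4, 52.7 and 56.3 CPM after Ad-PPARg and 47.3, 37.4, 30.8 and 46.2 CPM after Ad-GFP, and the correlation was 0.594, with Ad-GFP 3 instead of Ad-PPARg 2 as the lowest library. It was also lower in OPC than in microglia, by a log2 fold change of -2.30 (SE 0.21), close to the values of chr15-1 and chr15-2.

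Over all 16 libraries, with each cell type's mean taken out, 12406 other genes were ranked by their correlation with the mean of the 7 genes. The median was -0.02, and 11 genes, or 0.0887%, were above 0.9. The highest was ENSOCUG00000029637, with 6 exon entries on scaffold GL018777 at 1134683 to 1148261, at 0.983. It had 4.80 to 38.2 CPM over the OPC libraries and 44.4 to 120.6 CPM over the microglia libraries. Its log2 fold change after Ad-PPARg was 1.51 (SE 0.42, edgeR adjusted p 1.00) in OPC, larger than that of any of the 7 genes. In microglia it was 0.63 (SE 0.29, adjusted p 0.441), close to the 0.61 (SE 0.32) of chr15-1. The difference between the treatments was not taken out before the ranking. Fold changes of the same direction in the genes ranked highest are therefore partly fixed by the choice.

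The next were ENSOCUG00000027981, a gene of a single exon entry on scaffold GL019631, at 0.970, ENSOCUG00000021924 on scaffold GL019053, at 0.959, and ENSOCUG00000004501 on scaffold AAGW02082975, at 0.948. The level of ENSOCUG00000021924 was 145.2 to 617.3 CPM over the OPC libraries and 668 to 1627 CPM over the microglia libraries. The log2 fold changes of these 3 genes after Ad-PPARg were 1.45, 0.84 and 0.75 in OPC and 0.61, 0.37 and 0.63 in microglia, none called by edgeR, and each was lower in OPC than in microglia. All 4 of these genes lie on unplaced scaffolds, and no name is known for them here.

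**Figure D5:**
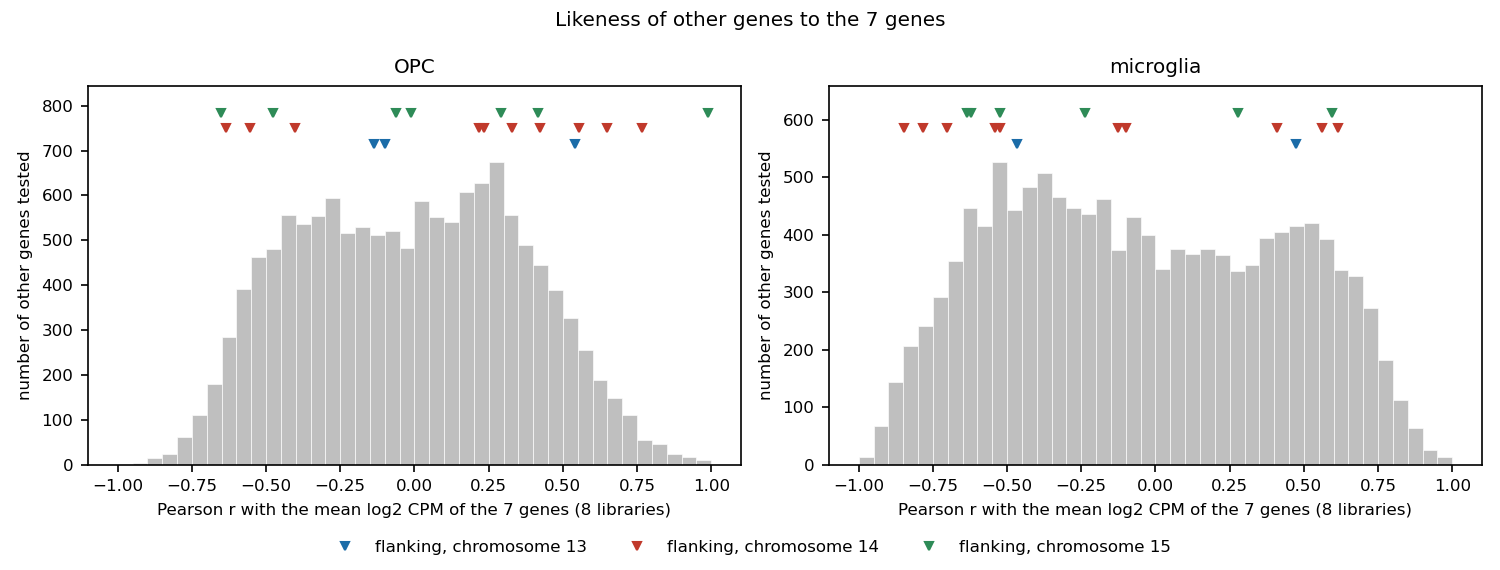
Number of other genes by their Pearson correlation with the mean log2 CPM of the 7 genes over the 8 OPC libraries and over the 8 microglia libraries; triangles mark the flanking genes by chromosome. Most flanking genes are spread over the range of all genes, and in OPC a single chromosome 15 flanking gene, the 24-entry gene, stands at 0.988.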

How the data were processed

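Paired-end RNA-seq of sorted cells was done per the labels' protocols. Subread 1.5.2, STAR 2.5.2b and bcl2fastq 2.17 are named, without roles, in the submitters' processing notes. What the authors deposited are raw counts of reads for every gene, as whole numbers, with exon positions, strand and length per the file headers. The build, the annotation and the strand setting were not found in those sources, so reads of near-identical or antisense genes may be split. Of the 23669 identifiers, 0 matched the RefSeq table. It served for gene order, names and spans only, and the planned lists of interferon genes and cell type markers by symbol could not be used.

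The members, lists and tests were chosen with earlier results of these data known. Treatment was tested within each cell type (8 libraries) and the difference of effects and the cell types over all 16, with edgeR 4.0.16 (R 4.3.3; quasi-likelihood, TMM, filterByExpr, Benjamini-Hochberg at 0.05 over all genes tested). The SE is the log2 fold change divided by the square root of F. All 7 members passed the filter in each fit. Named beside them are flanking genes and the 4 genes most like the members' mean log2 CPM (prior count 2). Fits were tested on simulated data. Alternatives covered scaling, filter, DESeq2 1.42.0, limma 3.58.1, blocks and leaving out each library. Animal identifiers in the titles pair the cell types in 6 animals (consensus correlation by animal 0.103). Chi-square per gene was 6.57 to 211 over the 24 pairs of libraries of the same group, so none was a repeat. Counting error is small against the spread between animals at high counts, but not at the lowest OPC counts. In OPC Ad-GFP, chr14-2, chr14-3 and chr15-2 had 60 to 137, 28 to 78 and 19 to 71 counts. Their SD there was 10.5, 15.4 and 32.9% of the mean CPM. The edgeR p-values take the libraries as independent, although those of the same prefix had a consensus correlation of 0.809 in OPC and 0.534 in microglia.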

Additional observations from a re-analysis of the deposited data

Results flagged for a closer look

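In the 4 microglia Ad-PPARg libraries, the lowest library stood far below the others for the 3 genes of chromosome 14. The gap between it and the next library, as a share of the range of the 4, was 0.907 for chr14-1, 0.857 for chr14-2 and 0.949 for chr14-3. In each gene the low library was Ad-PPARg 2, with 216.3, 100.9 and 77.8 CPM, where the other 3 had 424.2 to 445.6, 162.4 to 172.7 and 126.9 to 129.5 CPM. Chance flags about 1 in 20 such sets, 28 were examined, and the 3 genes share their libraries, so the flags are not independent. No set in OPC or in microglia Ad-GFP was flagged.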

How the results depend on the processing

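Over all alternatives run, 0 of the 7 genes were called for treatment in OPC, for treatment in microglia or for the difference of effects, and 7 of 7 were called lower in OPC than in microglia. The number of all genes called varied with the method. With sample quality weights, limma called 1281 of 13041 genes for treatment in microglia, 9 of 13492 in OPC and 4 of 14699 for the difference. The log2 fold change after Ad-PPARg ran from 0.62 to 1.40 in OPC (adjusted p 0.0865 to 1.00) and from 0.11 to 0.88 in microglia (adjusted p 0.0941 to 0.884), positive throughout. Leaving out each library, the difference of effects of chr15-1 ran from -0.0082 (without microglia Ad-PPARg replicate 2) to 0.43 (without OPC Ad-PPARg replicate 4), the only change of sign. With a replicate block on the animals, the members called stayed at 0 for the difference and 7 for OPC against microglia. For the difference, an unadjusted p below 0.05 was reached by 3 of 7 with the animal as a fixed block, 0 of 7 with it as a random block, and 3 of 7 without OPC Ad-PPARg replicate 4. Among all genes it was reached by 660 of 14802, 466 of 14699 and 910 of 15231 in these fits. Counts summed per identifier prefix left 2 of 7 with an unadjusted p below 0.05 in OPC, beside 45 of all 14524 genes. The median correlation between loci in OPC was 0.780 with treatment means out and 0.737 without the farthest libraries, a setting added after seeing the data, and 0.848 to 0.906 leaving out each library. In microglia it was 0.863 without the farthest libraries and 0.889 to 0.951 leaving out each library. For animals with both cell types the median correlation, 0.807 over both treatments, was 0.158 with treatment means out and 0.808 to 0.908 leaving out each animal. For chr13-1 and chr13-2 it was 0.758 and 0.779 with treatment means out. Upper-quartile scaling moved the median of all genes between the cell types from -0.01 to 0.19, and that of the 7 genes from -2.56 to -2.36. Depth limits chr15-2 and chr14-3 most, in OPC.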
